A study of Mus musculus with 6 samples.

Results

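Respiratory complex I, the NADH:ubiquinone oxidoreductase, is the entry point of the mitochondrial respiratory chain. It takes electrons from NADH, passes them along a row of iron-sulfur clusters to ubiquinone, and couples this to proton pumping across the inner membrane. Its conserved core is encoded partly by nuclear genes and partly by mitochondrial DNA, and a shell of accessory subunits is encoded wholly by nuclear genes. Assembly factors help to build the enzyme without staying in it. Neural progenitors are known for a lower reliance on respiration than the neurons they give rise to.

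All nuclear genes whose symbol starts with Nduf were taken from the deposited table, which gave 46 of 22048 genes. They comprised 36 complex I subunits, the 8 Ndufaf assembly factors, and 2 genes that carry an Ndufa name but are not complex I subunits, Ndufa4, now assigned to complex IV, and its paralogue Ndufa4l2. The subunits fell into 7 core subunits, 9 accessory subunits of the peripheral arm, which reaches into the matrix, 19 accessory subunits of the membrane arm, and the acyl carrier Ndufab1. All 46 passed the filter on low values, which kept 13952 genes. Ndufb1 has no row in the table and was not analysed here.

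RNA-Seq had been carried out on fetal hypothalamic NSC/NPCs (neural stem and progenitor cells) of C57BL/6 mice, cultured as floating neurospheres and harvested at the first passage. In the HE (high estradiol) group, dams aged 8 weeks were given estradiol valerate by gavage at 100 μg/kg/d from E5.5 to E11.5. NC dams were given the corn oil solvent in the same way, although a sample label calls this group untreated. Hypothalami came from male fetuses at E14.5 in both groups. Each group had 3 samples of cells from 2 mice each, named here NC1 to NC3 and HE1 to HE3, so that p-values measure the spread between 3 pools per group. The paper does not state how many dams or litters the pools came from, so pools of a group could share a litter. In bulk RNA, fewer cells of a type and less RNA per cell cannot be told apart.

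Between 16078675 (HE3) and 19137059 (NC2) reads per sample were counted on genes, and 1 read on a gene of 1 kb was worth 0.0523 to 0.0622 RPKM (reads per kilobase of gene, scaled to the sample's total of reads). HE3 stood apart from the other samples. Over all tested genes its median log2 difference from the NC mean was -0.17, against values between -0.02 and 0.02 in the other 5 samples. Of 12 neural progenitor markers all were detected in every sample, with a summed level of 3114 to 3748 RPKM in NC and 2987 to 4716 RPKM in HE. The highest sum, in HE3, was mostly Fabp7 at 2383 RPKM and Vim at 1764 RPKM. Single markers differed in HE3, where Sox2 (97.3 RPKM) and Msi1 (2.48 RPKM) were at their lowest and Nes and Hes1 at their highest.

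Complex I mRNAs from nuclear genes were slightly higher in the HE group for almost all subunits and for all Ndufaf assembly factors. Of the 36 subunits, 35 had a higher mean log2 level in HE than in NC, as did 8 of 8 assembly factors, beside 43.8% of all tested genes. The median log2 fold change (HE minus NC, on log2(RPKM + 0.1)) was 0.39 for the subunits, a fold of 1.31, and 0.31 for the assembly factors, a fold of 1.24, beside -0.06 for all tested genes. No member passed an adjusted p of 0.05 (limma with a mean-variance trend, Benjamini-Hochberg over 13952 genes), and 0% of all tested genes did. The smallest adjusted p of a member was 0.195. No member reached a log2 fold change of 1 either way.

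The weaker criteria give a fuller picture of how the members stood. At an unadjusted limma p under 0.05, 20 of 36 subunits and 2 of 8 assembly factors were higher in HE, beside 8.68% of all tested genes, and 0 of these 44 were lower, beside 11.8%. This count of 22 fell to 7 without NC1, beside 4.39% of all tested genes, and to 7 without NC2, beside 4.78%. The 3 HE values all lay above the 3 NC values for 25 of 36 subunits and 1 of 8 assembly factors, beside 14.8% of all tested genes. They all lay below for 1 subunit, Ndufb2, beside 17.9% of all tested genes.

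**Figure D1:**
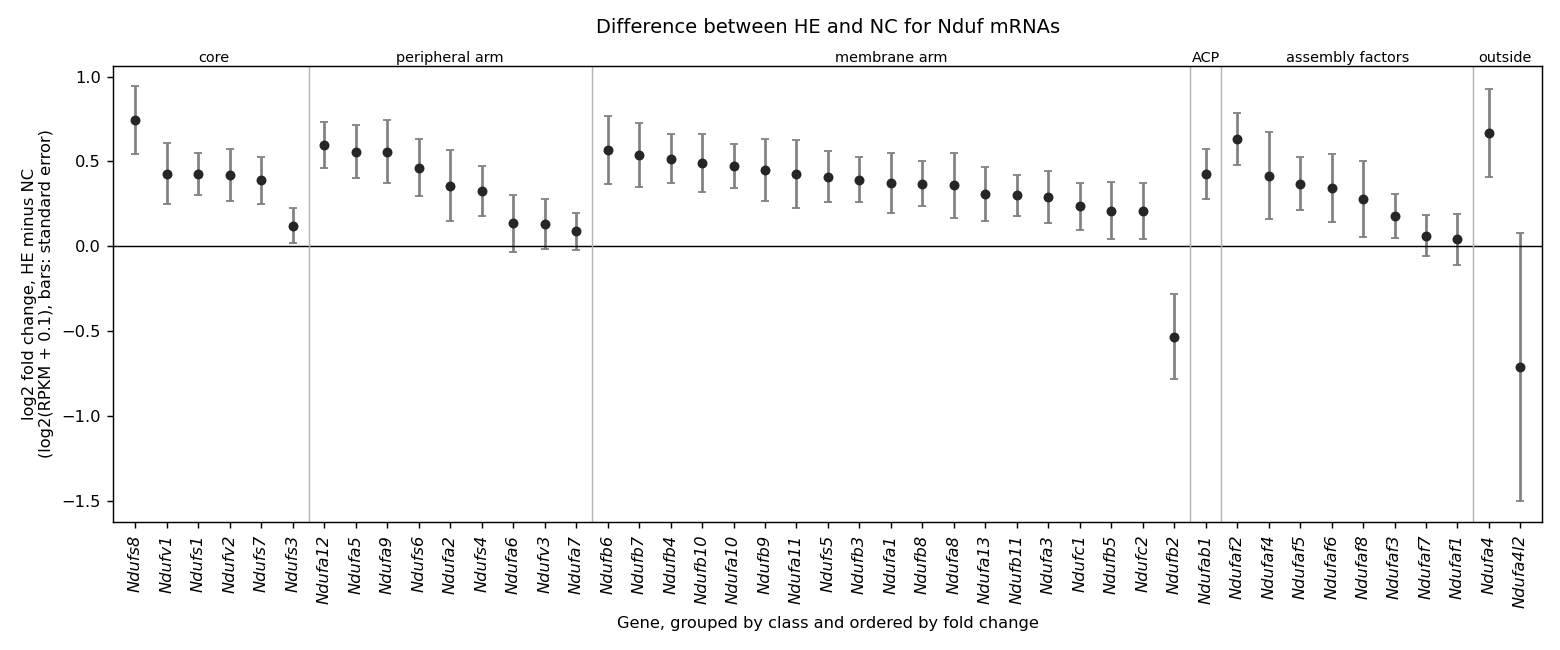
Log2 fold change (HE minus NC) of the Nduf mRNAs described here with its standard error, by class (ACP, the acyl carrier Ndufab1) and in order of size within each class. Values run from 0.74 for Ndufs8 to -0.53 for Ndufb2 among subunits and from 0.63 for Ndufaf2 to 0.04 for Ndufaf1 among assembly factors, with Ndufa4l2 at -0.71 outside the complex.

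The plot of log2 fold changes by class shows that no class stood apart from the others. The median was 0.42 for the core subunits (7 of 7 higher), 0.36 for accessory subunits of the peripheral arm (9 of 9 higher) and 0.37 for those of the membrane arm (18 of 19 higher). The HE values all lay above the NC values for 5 of 7 core, 6 of 9 peripheral accessory and 13 of 19 membrane accessory subunits. This held for 14.8% of all tested genes. Standard errors of single subunits ranged from 0.10 to 0.25, wider than nearly every gap between neighbours in the order.

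The differences from NC were largest in HE3. This sample was the highest of the 6 samples for 32 of 36 subunits and 6 of 8 assembly factors. The median log2 difference of the subunits from the NC mean was -0.06, -0.03 and 0.10 in NC1 to NC3 and 0.34, 0.19 and 0.63 in HE1 to HE3. For the assembly factors it was -0.03, -0.02 and 0.06 in NC1 to NC3 and 0.19, 0.09 and 0.65 in HE1 to HE3. The HE samples were above the NC samples in both series, by a small margin in HE2. Without HE3 the median log2 fold change was 0.26 for the subunits, with 35 of 36 higher, and 0.14 for the assembly factors, with 8 of 8 higher. For all tested genes it was -0.00018, with 6971 of 13952 higher.

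The order of the HE samples was shared by most subunits. For 29 of 36 the level fell from HE3 to HE1 to HE2, and 3 more, Ndufb8, Ndufs3 and Ndufv1, were highest in HE3 and lowest in HE1. Only Ndufb3, Ndufa6, Ndufv3 and Ndufb2 had another sample than HE3 at the top of the HE group. All 36 values came from the same 3 libraries, so this shared order is 1 observation of those libraries.

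**Figure D2:**
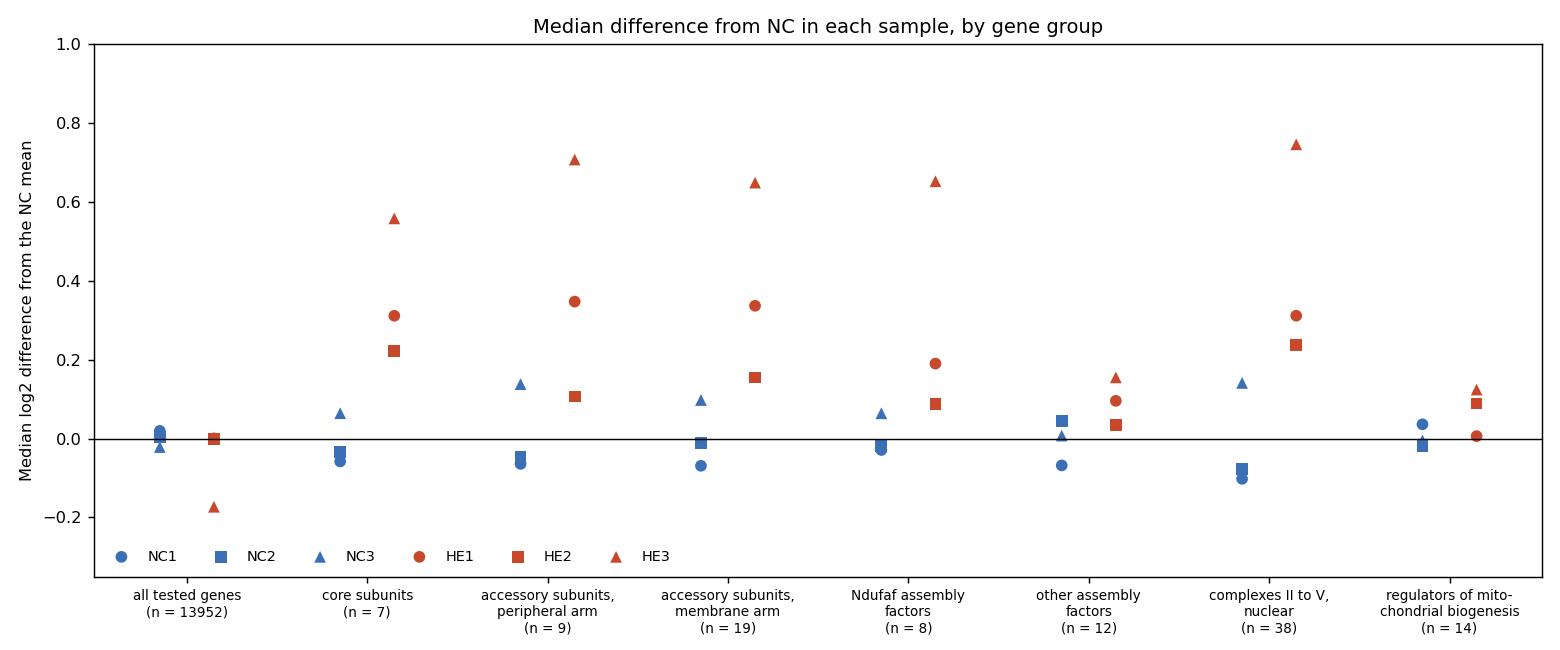
Median log2 difference from the NC mean in each sample (y axis) for all tested genes and 7 gene groups (x axis, number of tested genes in brackets), with NC samples in blue, HE samples in red and 1 marker shape per replicate number. The 3 HE samples lie above the 3 NC samples for core subunits and for assembly factors, HE3 is highest, and HE3 is lowest for all tested genes.

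Subunits and assembly factors differed clearly in level and little in fold change. The subunits had a median of 90.5 RPKM (0.594 to 340) and the assembly factors of 10.2 RPKM (3.36 to 45.2), a ratio of 8.87 between medians of values given per gene length. Of the 36 subunits, 28 had a higher mean RPKM than Ndufaf2, the assembly factor with the highest mean RPKM. The difference of the medians, subunits minus assembly factors, on the log2 scale was -0.03, -0.01 and 0.03 in NC1 to NC3 and 0.15, 0.10 and -0.02 in HE1 to HE3. It was higher in HE1 and HE2 than in any NC sample and within the NC range in HE3, so the groups overlapped. The mean over samples was 0.08 higher in HE, beside a pooled SD of 0.067.

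**Figure D3:**
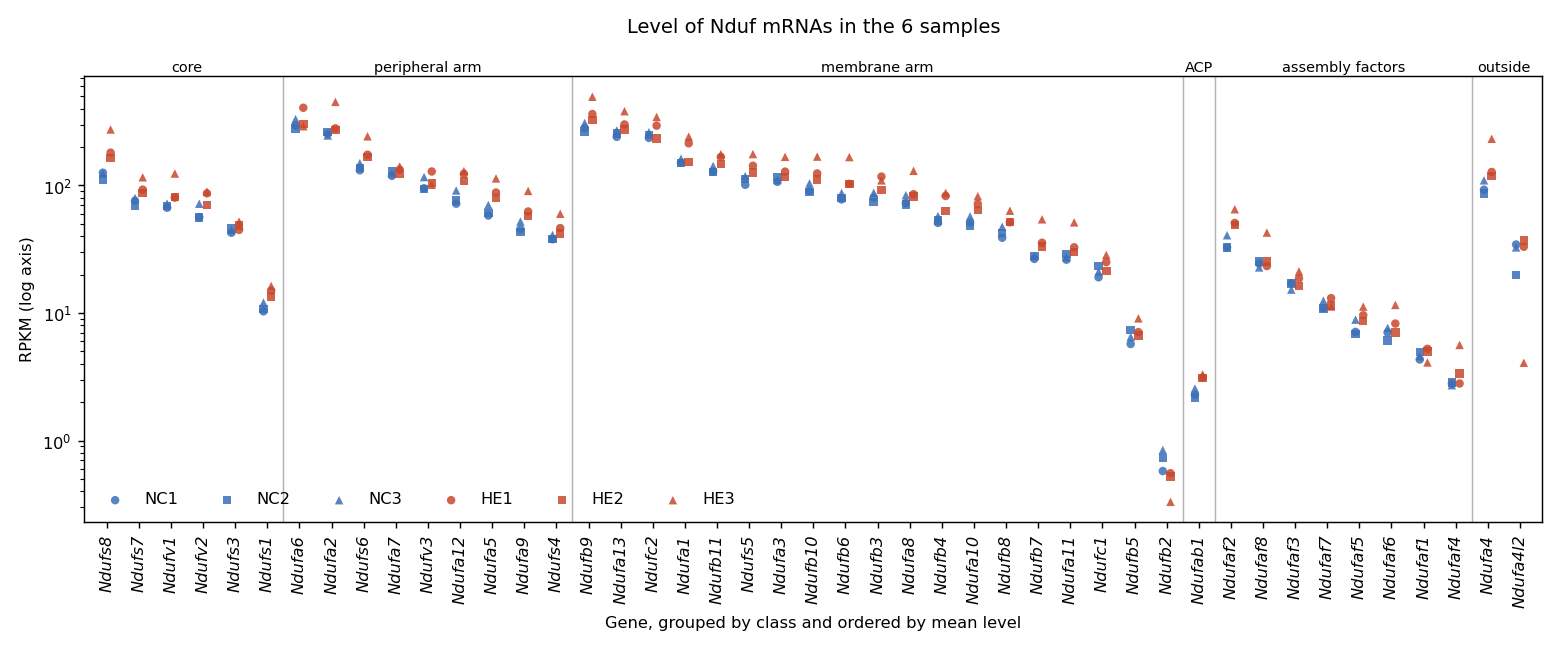
Level of the Nduf mRNAs described here in RPKM (log axis) in NC1 to NC3 (blue) and HE1 to HE3 (red), by class and in order of mean level. Most subunits lie above all assembly factors, Ndufb2 lies under 1 RPKM in every sample, and Ndufa4l2 is at 4.08 RPKM in HE3.

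Among the core subunits, Ndufs8 carries iron-sulfur clusters on the way to the quinone site and had the highest fold change of all subunits. It was at 126, 112 and 124 RPKM in NC and 181, 164 and 275 RPKM in HE, means of 121 ± 7.73 and 207 ± 59.6 (SD, n = 3). The lowest HE value was well above the highest NC value, and HE3 was far above the other two. The fold was 1.67, a log2 fold change of 0.74 (SE 0.20, limma adjusted p = 0.195), and 0.52 without HE3. Ndufs8 lies at chr19:3908863-3912774 on the minus strand in GRCm38.p6.

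Ndufaf2 is an assembly factor of the late stages and a relative of the subunit Ndufa12, whose place it holds until the enzyme is complete. It had the highest fold change of the assembly factors, at 32.6, 32.8 and 40.7 RPKM in NC and 50.8, 49.0 and 65.1 RPKM in HE. It was the only assembly factor whose groups did not overlap. The log2 fold change was 0.63 (SE 0.15, limma adjusted p = 0.195), a fold of 1.55, and 0.50 without HE3. Ndufa12 itself was at 72.0, 76.0 and 91.4 RPKM in NC and 123, 109 and 130 RPKM in HE. Its 3 HE values were close together and all above NC, with a log2 fold change of 0.60 (SE 0.13, limma adjusted p = 0.195) that stayed at 0.54 without HE3. The 120 bases before the start site of Ndufs8 (chr19:3912775-3912894, minus strand) and of Ndufaf2 (chr13:108158626-108158745, minus strand) are shown 5′ to 3′ from the RefSeq sequence of GRCm38.p6, since these 2 led their classes. The start site is that of the promoter table, which can lie inside the gene's outermost end. None of the 5 motifs searched for, which are spelled out further on, occurred in either.
Ndufs8: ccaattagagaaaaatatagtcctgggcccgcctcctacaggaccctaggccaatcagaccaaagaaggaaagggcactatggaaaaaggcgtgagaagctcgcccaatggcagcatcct
Ndufaf2: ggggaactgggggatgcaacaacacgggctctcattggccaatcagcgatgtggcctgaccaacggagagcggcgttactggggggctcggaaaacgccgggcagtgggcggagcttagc

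The core subunits of the NADH-oxidising tip had similar log2 fold changes in HE with all samples included. Without HE3 they were less alike, at 0.22 for Ndufv1, 0.35 for Ndufv2 and 0.36 for Ndufs1. Ndufv1, which binds NADH and the flavin, was at 67.0, 69.3 and 72.1 RPKM in NC and 80.3, 81.6 and 124 RPKM in HE, a log2 fold change of 0.43 (SE 0.18, limma adjusted p = 0.242) and 0.22 without HE3. Ndufv2, its iron-sulfur partner, was at 56.4, 56.0 and 72.0 RPKM in NC and 86.8, 70.1 and 89.6 RPKM in HE, a log2 fold change of 0.42 (SE 0.15). Ndufs1, the large iron-sulfur subunit, was at 10.3, 10.8 and 12.1 RPKM in NC and 14.9, 13.5 and 16.3 RPKM in HE, a log2 fold change of 0.43 (SE 0.12, limma adjusted p = 0.195). Groups were apart for Ndufv1 and Ndufs1, and overlapped for Ndufv2 because HE2 was just under NC3. Ndufv2 overlaps Ankrd12 on the genome. Although the libraries were strand-specific, it is not stated whether counting used the strand, so reads there could be shared, as for Ndufs1 with Ino80dos. The same limit holds for Ndufa1, Ndufa2, Ndufa9, Ndufa10, Ndufa13, Ndufb11, Ndufs7, Ndufaf2, Ndufaf4 and Ndufaf5, which each overlap another gene.

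Ndufs7 and Ndufs3 lay at lower fold changes than Ndufs8. Ndufs7, which holds the last iron-sulfur cluster beside the quinone pocket, was at 75.9, 68.9 and 79.8 RPKM in NC and 92.7, 87.2 and 116 RPKM in HE, a log2 fold change of 0.39 (SE 0.14, limma adjusted p = 0.210). Ndufs3, another core subunit of the peripheral arm, was at 42.7, 46.0 and 44.7 RPKM in NC and 44.9, 48.4 and 52.1 RPKM in HE. It had the lowest log2 fold change of the core subunits, 0.12 (SE 0.10) and 0.07 without HE3, and its groups overlapped.

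Among accessory subunits of the peripheral arm, the highest after Ndufa12 were Ndufa5 and Ndufa9, a subunit at the joint of both arms. Ndufa5 was at 58.1, 60.9 and 70.3 RPKM in NC and 88.1, 79.5 and 114 RPKM in HE, a log2 fold change of 0.56 (SE 0.16, limma adjusted p = 0.195). Ndufa9 was at 45.5, 43.2 and 52.2 RPKM in NC and 62.6, 57.6 and 90.7 RPKM in HE, also 0.56 (SE 0.18) and 0.36 without HE3. In both the HE values were all above NC. The lowest were Ndufa7 at 0.09 (SE 0.11), Ndufv3 at 0.13 (SE 0.15) and Ndufa6 at 0.13 (SE 0.17), whose groups overlapped. Ndufa6 and Ndufv3 went against the common order, with HE1 highest and HE3 within the NC range at 292 and 101 RPKM. Ndufs6, Ndufa2 and Ndufs4 lay between these, at 0.46, 0.36 and 0.33, each with HE values all above NC. Without HE3 they were at 0.29, 0.12 and 0.18.

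Among accessory subunits of the membrane arm, Ndufb6, Ndufb7 and Ndufb4 were the highest. Ndufb6 was at 77.8, 79.9 and 87.4 RPKM in NC and 103, 103 and 167 RPKM in HE, a log2 fold change of 0.57 (SE 0.20) and 0.34 without HE3. Ndufb7 was at 26.6, 28.0 and 28.0 RPKM in NC and 35.6, 33.3 and 54.3 RPKM in HE, a log2 fold change of 0.54 (SE 0.19) and 0.32 without HE3. Ndufb4 was at 50.9, 53.4 and 57.6 RPKM in NC and 82.8, 63.2 and 87.5 RPKM in HE, a log2 fold change of 0.52 (SE 0.15, limma adjusted p = 0.195). All 3 had HE values above NC, and HE1 stood near HE3 only for Ndufb4. The next were Ndufb10 at 0.49 and Ndufa10 at 0.47, and the lowest with a positive value were Ndufb5 and Ndufc2, both at 0.21 (SE 0.17), and 0.08 without HE3, with overlapping groups. Near copies in the reference could share reads with Ndufb4 (Ndufb4b and Ndufb4c), Ndufa12 (Ndufa12-ps), Ndufs6 (Ndufs6b), Ndufa11 (Ndufa11b) and Ndufab1 (Ndufab1-ps).

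Ndufb2 was the exception. It was at 0.578, 0.733 and 0.844 RPKM in NC and 0.556, 0.522 and 0.332 RPKM in HE, from 61, 79 and 90 reads in NC and 56, 56 and 30 reads in HE. Its HE values were all below the NC values, with HE3 lowest, and the log2 fold change was -0.53 (SE 0.25, limma adjusted p = 0.265), or -0.34 without HE3. The table lists a length of 5628 bases for Ndufb2, 77.3% of its RefSeq span of 7279 bases at chr6:39592565-39599843, while the median listed length of the subunits was 1414 bases. Its reads were the fewest of all subunits. Ndufab1, the mitochondrial acyl carrier protein, which also serves fatty acid synthesis, had a listed length of 6883 bases. It was at 2.29, 2.17 and 2.56 RPKM in NC and 3.12, 3.11 and 3.31 RPKM in HE, a log2 fold change of 0.43 (SE 0.15, limma adjusted p = 0.205) with groups apart. Leaving out HE3 left it at 0.40, since its 3 HE values were nearly equal.

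Ndufaf3 and Ndufaf4 act on the quinone module, where building starts. Ndufaf3 was at 17.1, 17.1 and 15.3 RPKM in NC and 18.7, 16.3 and 21.2 RPKM in HE, a log2 fold change of 0.18 (SE 0.13) and 0.08 without HE3. Its partner Ndufaf4 was at 2.80, 2.85 and 2.72 RPKM in NC and 2.81, 3.35 and 5.63 RPKM in HE, a log2 fold change of 0.42 (SE 0.26) and 0.13 without HE3. Both had overlapping groups, and the height of Ndufaf4 rested on HE3. Ndufaf6, which acts early as well, was at 7.03, 6.09 and 7.65 RPKM in NC and 8.28, 7.05 and 11.6 RPKM in HE, a log2 fold change of 0.34 (SE 0.20) and 0.15 without HE3.

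Of the assembly factors that modify or stabilise other proteins, Ndufaf5, which hydroxylates Ndufs7, was at 7.12, 6.83 and 8.88 RPKM in NC and 9.62, 8.70 and 11.2 RPKM in HE, a log2 fold change of 0.37 (SE 0.16, limma adjusted p = 0.243) beside 0.39 for Ndufs7. Ndufaf8, which stabilises Ndufaf5, was at 24.5, 25.4 and 22.8 RPKM in NC and 23.4, 25.3 and 42.7 RPKM in HE. Only HE3 was above NC, so that its log2 fold change of 0.28 (SE 0.22) was 0.0070 without HE3. Ndufaf7, a methyltransferase, was at 10.9, 10.9 and 12.5 RPKM in NC and 13.1, 11.48 and 11.26 RPKM in HE, a log2 fold change of 0.06 (SE 0.12). Ndufaf1, a part of the complex that assembles the membrane arm, was at 4.33, 4.94 and 4.61 RPKM in NC and 5.25, 5.00 and 4.10 RPKM in HE, a log2 fold change of 0.04 (SE 0.15). These last 2 were the lowest of the assembly factors, and both had HE1 highest and HE3 lowest of the HE samples.

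Both genes outside complex I went different ways. Ndufa4 was at 92.7, 86.2 and 110 RPKM in NC and 128, 118 and 232 RPKM in HE, a log2 fold change of 0.67 (SE 0.26, limma adjusted p = 0.226) and 0.36 without HE3. Ndufa4l2, known as a gene induced under low oxygen, was at 34.5, 19.8 and 32.7 RPKM in NC and 33.1, 37.0 and 4.08 RPKM in HE. HE3 alone was low, and the log2 fold change of -0.71 (SE 0.79, limma adjusted p = 0.598) became 0.31 without it. Ndufa4l2 overlaps Shmt2, with the limit on strand given for Ndufv2.

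Genes with a short listed length tended to higher values in HE, and many of these members have a short listed length. A listed length under 1 kb was found for 12 of 36 subunits and 3.12% of tested genes. Among the other tested genes the median log2 fold change fell with length, from 0.18 up to 1 kb to 0.03 at 1 to 2 kb, -0.03 at 2 to 4 kb, -0.08 at 4 to 8 kb and -0.14 above 8 kb. In HE3 alone the median difference of these genes from the NC mean ran from 0.24 to -0.34. The subunit medians did not follow this slope with listed length, at 0.38, 0.39, 0.40, 0.32 and 0.43 in the same bins of 12, 11, 8, 4 and 1 subunits. The listed length covered 92.9% of the RefSeq span for Ndufb7 and 77.3% for Ndufb2, so it need not be the mRNA length. These bins and the trend removal therefore cannot show how the subunits stand to mRNA length, which was not tested. Removing the length trend from each sample moved the median of all tested genes from -0.06 to 0.05. Of all 13952 tested genes, 7654 were then higher, against 6109 before. Removal left the subunits at 0.38 with 35 of 36 higher and the assembly factors at 0.31 with 8 of 8 higher.

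**Figure D4:**
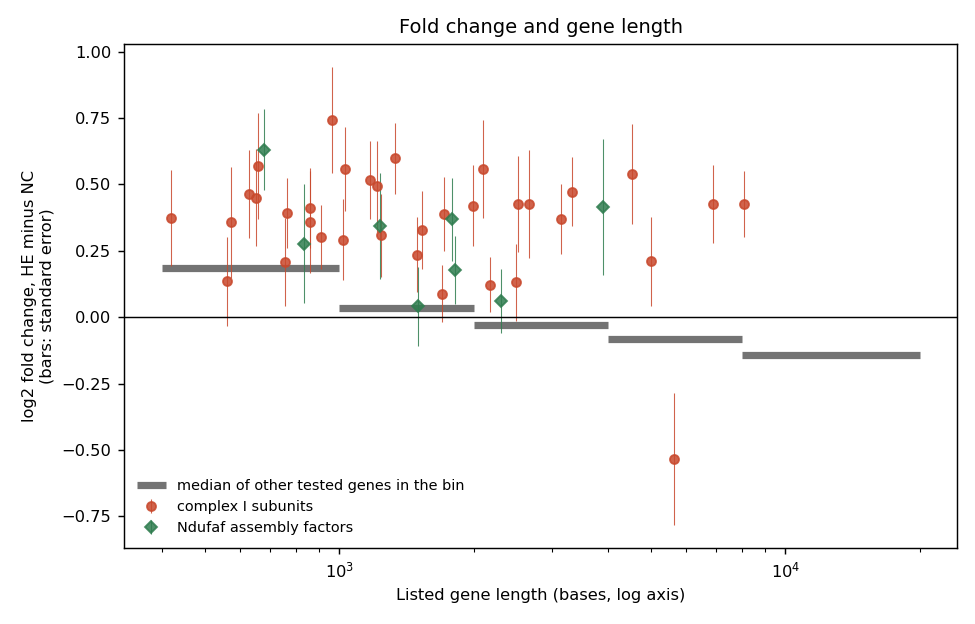
Log2 fold change (HE minus NC) with its standard error against listed gene length in bases (log axis) for subunits (circles) and 8 assembly factors (diamonds), with the median of the other tested genes in 5 bins of length as grey bars (the outer bins are open-ended and cut off for drawing). The grey bars fall from 0.18 to -0.14 with length, and all subunits shown but Ndufb2 lie above 0.

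Other genes of complex I were read from lists of the remaining assembly factors and of the mitochondrial subunits. Of 12 tested assembly factors with other names, such as Acad9 and Ecsit of the membrane arm assembly complex, 9 had higher means in HE. Over all tested genes the share was 43.8%. Groups were apart for 5 of the 12, beside 14.8% of all tested genes. The median log2 fold change of these factors was 0.13. They ran from -0.19 for Dmac2 to 0.30 for Foxred1, a factor with an oxidoreductase fold, which was at 11.9, 13.5 and 12.7 RPKM in NC and 14.3, 14.6 and 18.4 RPKM in HE. Of the 7 subunits from mitochondrial DNA, 5 were tested and 4 were higher, with a median of 0.18. Their levels of a few RPKM were far under those of the nuclear subunits, mt-Nd3 had 1 read in all and mt-Nd4l had 0, so the table holds little of these transcripts. mt-Nd6 was at 9.86, 8.86 and 9.56 RPKM in NC and 12.1, 11.7 and 16.2 RPKM in HE, a log2 fold change of 0.48 (SE 0.15, limma adjusted p = 0.195).

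The rest of the respiratory chain had medians near that of complex I, without a test between them. For nuclear genes of complexes II to V, 38 of 38 were higher in HE, with a median of 0.44 and groups apart for 25 (beside 14.8% of all tested genes), from 0.17 for Atp5d of the ATP synthase to 0.65 for Cox7b of complex IV. Without HE3 this median was 0.26, with 37 of 38 higher. Of 13 markers of mitochondrial mass, 12 were higher (median 0.38, or 0.25 without HE3), from -0.07 for the chaperone Hspa9 to 0.88 for the ADP/ATP carrier Slc25a5. Of 14 genes of NADH shuttles and dehydrogenases, 12 were higher (median 0.37, or 0.23 without HE3), from -0.33 for the transhydrogenase Nnt to 0.86 for the shuttle enzyme Gpd1. Of 3 supercomplex factors 1 was higher (median -0.24), from -0.38 for Higd2a to 0.17 for Cox7a2l, and without HE3 2 of 3 were higher (median 0.13). None of these genes passed an adjusted p of 0.05 (limma).

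Regulators of mitochondrial biogenesis had a median near 0, at 0.06 with 10 of 14 higher, beside 43.8% of all tested genes. Groups were apart for 1, beside 14.8% of all tested genes. Nrf1, a factor that binds many promoters of respiratory genes, was at 8.34, 7.92 and 8.08 RPKM in NC and 8.27, 8.66 and 8.57 RPKM in HE. Yy1, another such factor, was lowest at -0.46 (SE 0.28), from 25.3, 25.8 and 26.3 RPKM in NC and 21.3, 26.8 and 11.6 RPKM in HE. Esrrb, an orphan receptor, was highest at 1.12 (SE 0.51) but lay under 1 RPKM in every sample. The Nrf1 groups overlapped, and the value of Yy1 rested on its low level in HE3.

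Promoters were searched for 5 motifs on both strands, in the 250 bases before and 50 bases after the RefSeq start. A promoter was given for 40 of 46 members, and for 32 subunits and 7 assembly factors. The motifs were NRF1 (GCGCATGC), the ETS family (CCGGAAGT), ERR (TCAAGGTCA), the estrogen response element (GGTCA, any 3 bases, TGACC) and YY1 (AAGATGGC). The ERR letters end in the GGTCA that also opens the estrogen response element. Genes were counted once, as holding a motif if any of their promoters did. The YY1 letters occurred for 7 of 32 subunits (21.9%) and 1 of 7 assembly factors (14.3%). They occurred for 4.95% of 10862 tested genes with a promoter and 3.19% of all 27018 genes with a promoter. The 8 windows are printed because these letters all lay after the start site and in the orientation of the gene, with the motif in capitals.
Ndufa3 (chr7:3617377-3617406, plus strand): cttgtcgccgccaagaacAAGATGGCcggg
Ndufa9 (chr6:126849104-126849133, minus strand): cgtgaggcattgtgggagAAGATGGCggcc
Ndufb8 (chr19:44555393-44555422, minus strand): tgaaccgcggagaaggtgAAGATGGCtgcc
Ndufc1 (chr3:51408922-51408951, minus strand): aggcggagcctgcggaacAAGATGGCgccg
Ndufs4 (chr13:114388048-114388077, minus strand): ctggcgtttgcctacaggAAGATGGCggcg
Ndufs6 (chr13:73328438-73328467, minus strand): gggtcaagggtcaccggcAAGATGGCggcg
Ndufs7 (chr10:80249455-80249484, plus strand): tgtctgaaggccgaggccAAGATGGCggcg
Ndufaf8 (chr11:120098926-120098955, plus strand): ccggaagaggcagggcccAAGATGGCggcg

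These 8 genes were not alike in their values. The log2 fold change was 0.56 for Ndufa9, 0.46 for Ndufs6, 0.39 for Ndufs7, 0.37 for Ndufb8, 0.33 for Ndufs4, 0.29 for Ndufa3, 0.28 for Ndufaf8 and 0.23 for Ndufc1, which spans the middle of the range of all members. The letters include an ATG, and whether they lie at the start codon was not read from the promoter table.

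The NRF1 letters occurred for 3 of 32 subunits (9.38%) and 2 of 7 assembly factors (28.6%). They occurred for 5.72% of tested genes with a promoter and 3.05% of all genes with a promoter. The promoters of Ndufa11, a membrane arm subunit, and Ndufaf4 are printed because each holds the letters on both strands, as an overlapping pair in capitals, within the 120 bases before the start (GRCm38.p6, plus strand, chr17:56717642-56717761 and chr4:24897963-24898082).
Ndufa11: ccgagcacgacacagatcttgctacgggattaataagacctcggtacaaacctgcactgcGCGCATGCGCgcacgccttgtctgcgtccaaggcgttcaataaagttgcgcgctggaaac
Ndufaf4: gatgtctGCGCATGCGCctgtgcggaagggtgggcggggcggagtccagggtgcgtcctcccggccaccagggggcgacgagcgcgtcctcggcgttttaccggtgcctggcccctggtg

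In both genes HE3 was the highest sample, as in most members. Ndufa11 was at 26.2, 29.0 and 27.4 RPKM in NC and 32.8, 30.0 and 51.4 RPKM in HE, a log2 fold change of 0.43 (SE 0.20) and 0.19 without HE3, beside 0.42 and 0.13 for Ndufaf4. The ETS letters occurred for 1 of 32 subunits (3.12%, Ndufs3) and no assembly factor, beside 8.53% of tested genes with a promoter. The ERR letters and the estrogen response element occurred for 0 of these subunits and assembly factors. For tested genes with a promoter the shares were 0.313% and 0.00921%. These shares describe letters in a window and do not show binding.

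Genes of cell division and markers of some other cells had higher values in HE as well. All 15 cell cycle genes had higher means in HE, with groups apart for 11 (beside 14.8% of all tested genes), a median log2 fold change of 0.58 and a summed level of 328 to 448 RPKM in NC and 497 to 776 RPKM in HE. Of 7 tested mesenchymal and perivascular markers 7 were higher, with groups apart for 2 and overlapping sums (32.6 to 94.0 RPKM in NC and 78.4 to 168 RPKM in HE over the 8 listed), and of 4 tested endothelial markers 3 were higher (2.79 to 3.80 and 4.64 to 6.19 RPKM over 7). Of 3 tested microglia and macrophage markers 3 were higher, with a summed level over 8 of 0.298 to 0.733 RPKM in NC and 1.26 to 6.80 RPKM in HE. C1qb, at 0.098, 0 and 0 RPKM in NC and 1.13, 0.578 and 2.00 RPKM in HE, passed the filter only through HE samples. Its direction was thus set by the filter. Groups overlapped for the others, Csf1r and Cx3cr1. Blood markers did not follow the groups, with sums of 0.514 to 0.696 RPKM in NC and 0.454 to 4.42 RPKM in HE, 4 of 6 at 0 in all NC samples, and the 1 tested, Alas2, at a log2 fold change of -0.65.

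Most tested markers in each list of the neural lineage had lower means in HE. The HE values all lay below NC for 4 of 12 progenitor markers (Sox2, Prom1, Msi1 and Sox1), beside 17.9% of all tested genes. They all lay above NC for 0 of these 12, beside 14.8% of all tested genes. Of the 10 neuron markers, 4 had HE values all above NC and 0 all below. Of neural progenitor markers 2 of 12 were higher (median -0.33, or -0.21 without HE3), of neuron markers 4 of 10 (median -0.10, summed level 120 to 154 RPKM in NC and 138 to 272 RPKM in HE), of astrocyte markers 2 of 6 (median -0.32, 1279 to 1563 and 813 to 1283 RPKM) and of oligodendrocyte lineage markers 2 of 7 (median -0.20, 289.7 to 319.7 and 313 to 514 RPKM). Without HE3, 5 of 7 oligodendrocyte lineage markers were higher (median 0.07). The part of division and of cell mixture in the complex I values was not tested.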

How the data were processed

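RNA-Seq of 3 HE and 3 NC samples was analysed from 1 table of genes. The authors filtered reads, aligned them with Tophat2 to the mouse genome (mm10 in the submitters' processing notes) and computed RPKM from each read count, a listed gene length and the sample total. The deposited RPKM differed from this formula by at most 4.99e-07. The libraries were strand-specific. The counting tool, annotation and use of strand in counting are not given in the sources used here, and the sequencer is named differently in labels and paper. Deposited read counts carry commas between digits and did not pass a check of units as counts, so RPKM was used for the main test. With the commas removed, the counts served for the filter and, in limma's voom, as an alternative. The study's DESeq2 test was not repeated.

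The test was limma 3.58.1 (R 4.3.3) with a mean-variance trend and no term but the group, run on log2(RPKM + 0.1). Genes entered when at least 3 samples reached 10 reads, scaled to the median library, and all samples together 15 reads. The test was tried on simulated data, which held no deviating sample such as HE3, so this trial does not show how it performs here. Symbols were found for 21781 identifiers. RefSeq of GRCm38.p6 gave coordinates and promoters. Members, gene lists and alternatives were chosen with earlier results of these data known. Named in full were core subunits (the values of 1 are not reported here), Ndufaf genes, Ndufab1, Ndufa4, Ndufa4l2 and the 3 highest and 3 lowest accessory subunits of each arm, and of other lists the highest and lowest gene. Ndufa11, the further YY1 promoters' genes, Nrf1, mt-Nd3, mt-Nd4l and the remaining accessory subunits were named after their values were seen. Alternatives were another pseudocount, scaling, filters, voom, removal of the length trend, a replicate block and each sample left out.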

Additional observations from a re-analysis of the deposited data

How the results depend on the processing

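Under 13 alternatives, 35 of 36 subunits were higher in HE in each except without HE1, where 34 were. Of the assembly factors, 8 of 8 were higher in each except without NC1 (7) and without HE1 (6). Where the 13952 tested genes were kept, 5863 (without HE1) to 7654 (length trend removed) of all tested genes were higher. With other filters 9241 of 19653 and 5779 of 12940 were. No member passed an adjusted p of 0.05 (limma) under any alternative. The subunit median ran from 0.26 (without HE3) to 0.49 (without HE2) and the assembly factor median from 0.14 to 0.42 with the same samples left out. The count of 22 complex I members higher at an unadjusted limma p under 0.05 stood beside 8.68% of all tested genes. With 1 sample left out it ranged from 7, without NC1 (4.39% of all tested genes) and without NC2 (4.78%), to 26 without HE2 (7.63%). With the length trend removed it was 16, beside 11.35% of all tested genes. The log2 fold change turned to -0.0050 without NC1 and -0.029 without HE1 for Ndufaf1, to -0.0053 for Ndufaf7 and -0.015 for Ndufa6 without HE1, and to 0.31 without HE3 for Ndufa4l2. With 1 sample left out, these ranged up to 0.14 for Ndufaf1, 0.13 for Ndufaf7 and 0.23 for Ndufa6, and down to -1.3 for Ndufa4l2. The cause was not tested.

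Replicate numbers were not taken as pairs, since deviations of same-numbered samples correlated at 0.156, 0.0869 and 0.0603, although each sample correlated best with its own number. With the replicate block the count was 24, beside 8.75% of all tested genes, and the smallest limma adjusted p of a member was 0.106. Median-of-ratios scaling put the median of all tested genes at -0.0014, the subunits at 0.45 and the assembly factors at 0.37. Without NC3, 105 of all tested genes and no member passed. With 30 to 90 reads per sample, counting error limits Ndufb2 most.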
